A study of Rattus norvegicus with 18 samples.

Results

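The candidate miRNAs are the short RNA sequences of rat cerebral cortex that the study set out as possible miRNAs without an entry in the miRNA database it used, and they are numbered here as in that list, whose last entry is Candidate0101. All entries were taken, whatever their level. Every candidate was counted directly in the 18 files of clean sequence tags, together with 690 distinct mature rat miRNAs of RefSeq, which with the candidates made 791 sequences in all. A tag was counted for a sequence when it matched it without mismatch over the stretch they share, started within 3 nt of the listed 5' end and ended at most 3 nt past the listed 3' end, whatever bases lay past that end. Levels are given as TPM, the tag reads per 1000000 clean reads of a library, as the mean of both sequencing runs and with only those tags that had reads in both runs of the tissue sample, so that 0 TPM means that no tag was seen in both runs.

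The tissue came from Sprague Dawley rats, for which no transgene or treatment is named. At embryonic days 10 and 13 (E10, E13) the labels name forebrain and the methods whole cortex, while from E17 to postnatal day 28 (E17, P0, P3, P7, P14, P28) they name somatosensory cortex, taken by the methods from the dorsolateral cortex. The methods also state that subcortical tissue and meninges were removed, without limiting this to some of the stages. P0 had 2 tissue samples and every other stage 1, each sequenced in 2 runs, which gave 18 libraries of 4899010 to 16590379 clean reads, and the sources used here do not say how many animals a sample held. Differences along the stages therefore rest on 9 tissue samples, and only the P0 pair shows the spread between tissue samples. The brain miRNAs miR-9, miR-128 and miR-137 summed to 23743 to 185569 TPM in the 9 tissue samples. The 11 mature miRNAs on the list of mesenchyme and vessel markers (such as miR-199a and miR-126) summed to 31506 TPM at E10 and 42414 at E13, against 597 to 4369.9 from E17 on, and the 6 blood markers (miR-451, miR-144, miR-223) to 1188 TPM at E10 and 35.2 to 108 later. No marker of either list was at 0 in all libraries. Less of a cell type and less RNA per cell cannot be told apart in such bulk tissue.

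A miRNA is cut by Drosha and then Dicer from one arm of an RNA hairpin and is loaded into an Argonaute protein, which it guides to messenger RNAs through its seed, bases 2 to 8. The cut at the 5' end sets the seed, so that the reads of a miRNA usually begin at a fixed base, whereas the 3' end is often shortened or extended after the cut. Both strands of a genomic hairpin site can be transcribed, in which case an almost mirror-like hairpin forms from the opposite strand. In the developing cortex, known miRNAs such as miR-9 and miR-219 take part in the change from dividing progenitors to neurons and myelinating glia.

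Shown first are 5 of the 10 candidates with the highest levels, whose courses are described singly, in DNA letters from 5' to 3' with the seed in capitals.
Candidate 11: cTAAGGCAggcagacttcagtg
Candidate 55: tAGGCTAGaaagaggttgggga
Candidate 78: tGTGGACAccgtgggaggttg
Candidate 82: tGGAGGAGagaaaaagagaca
Candidate 22: gCGTTTGGgaacgatgttgtt

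The second set holds the 5 largest falls and the 5 largest rises that passed the test of the slope and kept their direction in both runs, again with the seed in capitals.
Candidate 58: aGAAAGGGaggcctctgcagta
Candidate 1: tGGCTATGatgtttactacct
Candidate0101: gTTCCTGCtgaactgagccagt
Candidate 19: aATCATGAgaagctgggcgtg
Candidate 49: gTTGGAAGgacttgtgaaggtgt
Candidate 6: aGTCAGGCtactggttatatt
Candidate 87: aCTGAATGctggactgggcag
Candidate 98: aAAGGACAaagaaaagggtta
Candidate 39: tCAAGGTCcgctgtgaacacgg
Candidate 27: tCAGAGAGagtagaggacaag

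The third set places candidates beside the RefSeq miRNAs (assembly GRCr8) whose hairpins hold them on the same or the opposite strand, or which resemble them, since the results on these sites turn on which strand and which start the reads had.
Candidate 4: gGACGTCCagacgcaact
rno-miR-219a-1-3p: aGAGTTGCgtctggacgtcccg
Candidate 45: aGAATTGCgtttggacaatcag
rno-miR-219a-5p: tGATTGTCcaaacgcaattct
rno-miR-219b: aGATGTCCagccacaattctcg
rno-miR-24-3p: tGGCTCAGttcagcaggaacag
rno-miR-3074: gATATCAGctcagtaggcaccg
Candidate 71: aACTATACcaggatgtcagc
rno-miR-1949: tATACCAGgatgtcagcatagtt
rno-miR-344b-5p: aGTCAGGCtgctggttatattc
Candidate 94: aGGGGCAGtgatagaaaggaga
rno-miR-3573-5p: tGAGGGGCagtgatagaaagga
Candidate 31: tGTCTGGGagcagccaaggacaag
Candidate 48: cAACACTGcactggaagatg

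In base composition and length the candidates lay close to the 548 RefSeq miRNAs with at least 10 reads. Their GC content had a median of 50% (range 25 to 90.5), against 47.8% in the RefSeq miRNAs, and both sets had a median length of 22 nt, with candidates of 18 to 24 nt. The first base, which Argonaute proteins contact, was U in 36 candidates (35.6%) and A in 34 (33.7%), and U in 36.1% and A in 31.2% of the RefSeq miRNAs. Seeds were mostly not shared. A candidate had the seed of a RefSeq miRNA in few cases, among them Candidate 6 (miR-344b-5p and miR-344g, seed GUCAGGC), Candidate 5 (miR-466c-5p, GUGAUGU), Candidate 10 (miR-100-3p, AAGCUUG), Candidate 48 (miR-141-3p, AACACUG) and Candidate 94 (miR-326-5p, GGGGCAG). Candidate 88 stood at the upper end of the range of GC content, with 90.5%, and this candidate was singled out after its value was seen.

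All candidates had tags in the libraries, which is partly so by construction, because the study drew its list from these same reads. Their reads were very unequal. The counted tags amounted to 308839 reads, of which Candidate 11 held 73.2% and Candidate 55 12.7%, and the median candidate had 241 reads over the 18 libraries (range 21 to 226087). At its stage of highest level, a candidate reached more than 100 TPM in 3 cases, more than 10 TPM in 14 (those 3 included), 1 to 10 TPM in 65 and less than 1 TPM in 22. Without Candidates 11 and 55, and by all counted tags, the candidates together made up 461 TPM at E10, 434 at E13, 207 at E17 and 107 to 155 from P0 on. In both runs E10 and E13 lay above all later tissue samples, but their order differed. Run 1 had 399 TPM at E10, 554 at E13, 262 at E17 and 96.3 to 182 from P0 on, and run 2 had 522 at E10, 315 at E13, 153 at E17 and 116 to 145 from P0 on.

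**Figure D1:**
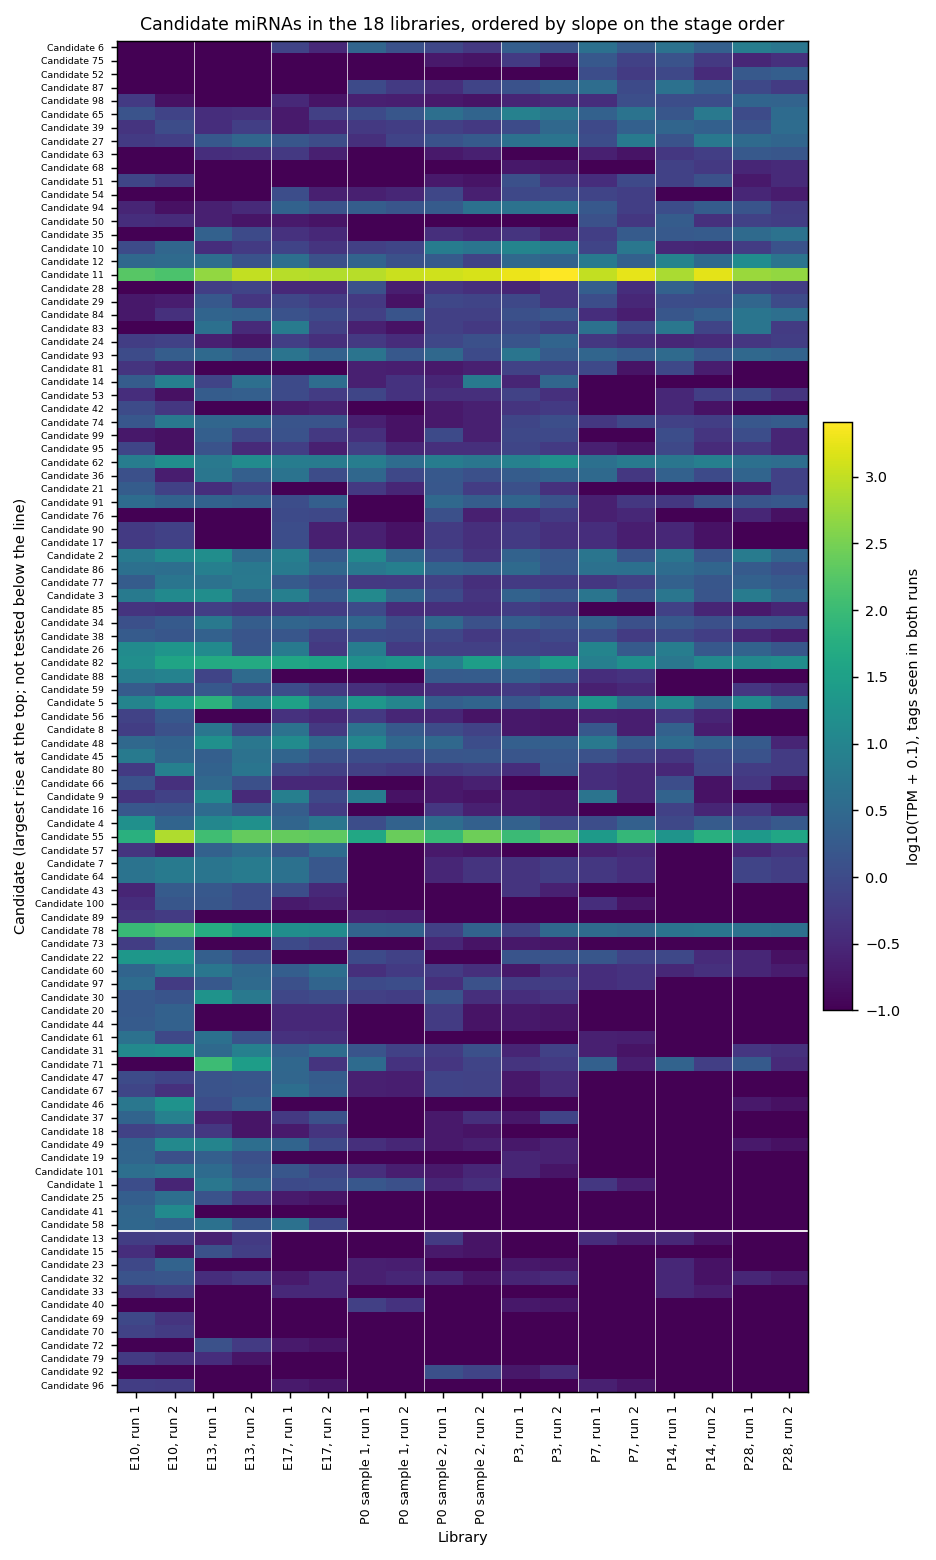
Level of each candidate (rows) in each of the 18 libraries (columns, by stage and run) as log10(TPM + 0.1), counting tags seen in both runs, with rows ordered by slope on the stage order and the 12 untested candidates under the white line. Candidates 11 and 55 are the brightest rows, and the rows that fell, in the lower part, are bright mainly at E10, E13 and E17.

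More candidates were detected at the embryonic stages than at most later ones. Of the candidates, 90 had reads in both runs at E10, 86 at E13, 92 at E17, 74 and 88 in the P0 samples, 85 at P3, 75 at P7, 68 at P14 and 74 at P28. With every library thinned to 4899010 reads, the size of the smallest, the expected numbers were 81.7 at E10, 76.9 at E13, 72.9 at E17 and 54.1 to 64.3 from P0 on. At equal depth the 3 embryonic samples thus held the most candidates, which the study had called from these same reads. At full depth, candidates with at least 10 reads numbered 88 at E10, 73 at E13, 71 at E17 and 53 to 61 from P0 on. RefSeq miRNAs with at least 10 reads numbered 494, 455, 420 and 399 to 435, and the difference between the sets was not tested. In all, 42 candidates were seen in both runs of all 9 tissue samples and 13 in at most 4, with Candidate 70 in 1. A count of 0 in a tissue sample allows 0.109 to 0.151 TPM (3 reads), a limit that covers counting error only.

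The reads of most candidates began at the listed 5' end. Over all libraries the median candidate had 89.1% of its counted reads at that base (quartiles 76.8 and 97.3%), and 50 of the candidates had at least 90%. Among the 548 RefSeq miRNAs with at least 10 reads the median was 93.7%. At like abundance, 20 to 1000 reads, the order of the medians was the other way round, with 90.1% for 92 candidates and 85.7% for 176 RefSeq miRNAs. Only a few candidates, 5 in all, had under 50% (4.95%, against 15.3% of the RefSeq miRNAs). The study took the listed sequence from these reads, and the RefSeq sequences came from elsewhere, so the shares of the sets are not of the same standing and the difference was not tested. By tissue sample the candidate median ran from 89.5 to 94.7%. The share was 98.7% for Candidate 11, 97.9% for Candidate 55 and 99.5% for Candidate 58, while Candidate0101 had 47.5% and Candidate 42 41.1%, the latter named after its value was seen.

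For 3 candidates another start was commonest. Candidate 2 had no read at its listed start, and its commonest start lay 3 nt upstream, which is the listed start of Candidate 3. Candidate 91 had none either, with its commonest start 3 nt downstream (all of its 403 reads), and Candidate 71 had 0.462% at the listed start and 88.1% at the base 3 nt downstream, where RefSeq starts miR-1949. In these candidates the seed of the sequenced RNA is therefore not that of the listed sequence. The commonest tag of Candidate 91 is shown for this reason, with the seed it carried in capitals.
Candidate 91 commonest tag: tCAGAGGAttaaggtgaccagg

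**Figure D2:**
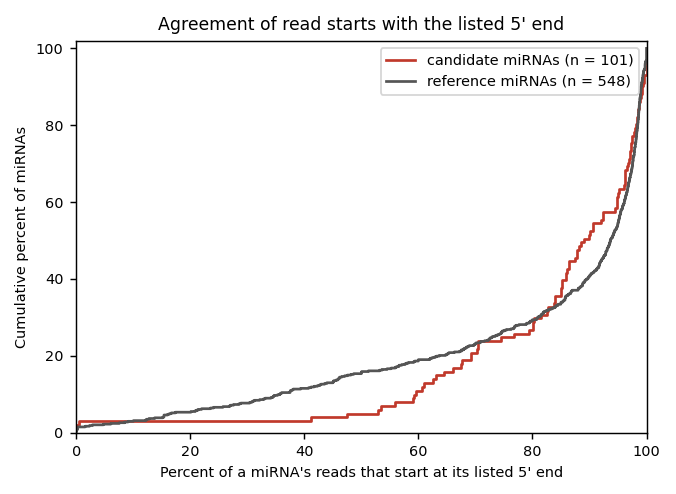
Cumulative percent of miRNAs (y axis) by the percent of their reads that started at the listed 5' end (x axis), for the candidates and the 548 RefSeq miRNAs with at least 10 reads. The candidate curve stays low until about 60% and then climbs, with a median of 89.1% against 93.7% for the RefSeq miRNAs at all abundances and 90.1% against 85.7% at 20 to 1000 reads.

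Candidate 11 had the most reads of the candidates, and its level was highest at P3. It had 164 TPM at E10, 754 at E13, 835 at E17, 992 and 1309 in the P0 samples, 2212 at P3, 1386 at P7, 1195 at P14 and 525 at P28. It was lowest at E10, climbed to P3 and was lower again at P28, where run 1 gave 561 TPM against 484 at E13 and 868 at E17, and run 2 489.6 against 1024 and 803. P0 averaged 1151 ± 224 TPM (SD, n = 2 tissue samples), and P3 lay above both P0 samples in run 1 (1868 against 859 and 1224) and in run 2 (2556 against 1126 and 1394). The linear slope did not pass the threshold (0.30 ± 0.26 log2 units per stage step, adjusted p = 0.361, edgeR), but the quadratic term did (-0.29 ± 0.05, adjusted p = 0.00805), where a negative value means a higher level at the middle stages. Without E10 the term was -0.24, adjusted p = 0.063, and with run 1 by itself it was also short of the threshold (-0.23, adjusted p = 0.219).

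The reads of Candidate 11 ended earlier at the late stages. Of its reads with the listed start, 75.3% ended at the listed base at E10, 68.8% at E13, 56.3% at E17, 56.8 and 62.4% at P0, 64.0% at P3, 55.7% at P7, 48.9% at P14 and 35.5% at P28. The share that ended earlier went from 7.04% in run 1 and 3.82% in run 2 at E10 to 47.4% and 42.5% at P28. The libraries before P7 had 3.82 to 27.8% and those from P7 on 24.5 to 50.3%, so that within each run the late libraries lay above all earlier ones. The median of the same share over RefSeq miRNAs with at least 500 reads, beside it, was 48.0% in run 1 and 4.38% in run 2 at E10, 44.8 and 39.3% at P3, and 62.3 and 53.5% at P28, and its part in the change was not tested. Reads 1 nt longer with a U, the base that the listed precursor encodes next, made up 10.8% of the reads with the listed start, and reads 1 nt longer with an A, which the precursor does not encode there, 8.09%. The A form lay between 5.84 and 9.58% in the tissue samples. The precursor listed for Candidate 11 also gave 96 reads from its other arm, against 205037 from the arm that holds the candidate.

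**Figure D3:**
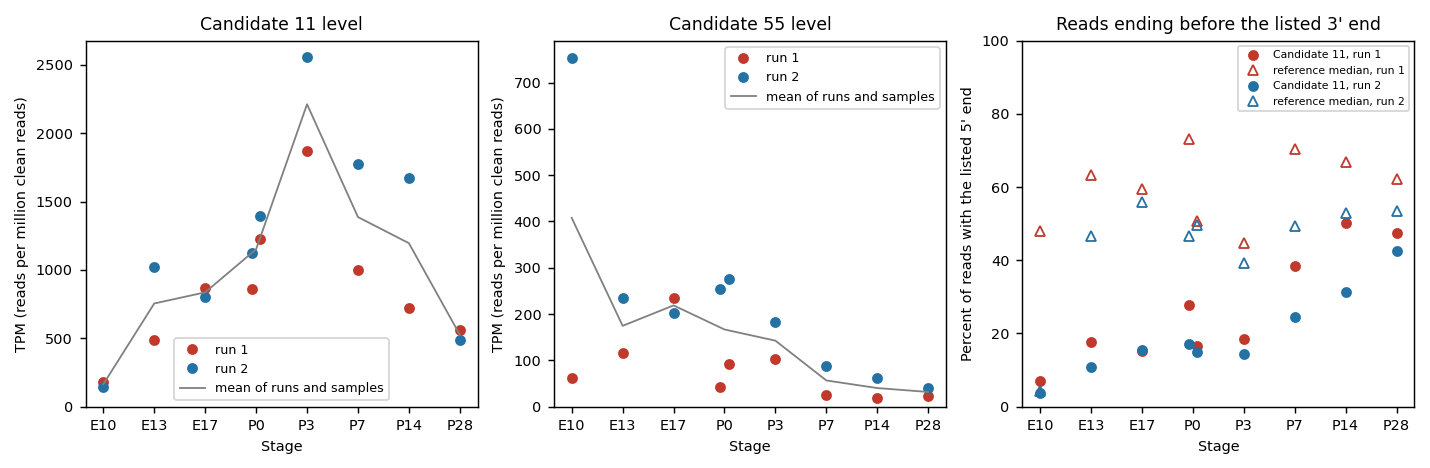
Levels of Candidate 11 (left) and Candidate 55 (middle) in TPM by stage, one point for each library, coloured by run, with a line through the stage means, and the percent of reads with the listed start that ended before the listed 3' end (right) for Candidate 11 (filled) and as the median over RefSeq miRNAs (open). Candidate 11 peaked at P3 in both runs (1868 and 2556 TPM), the runs of Candidate 55 differed most at E10 (61.6 and 754 TPM), and the shortened share of Candidate 11 was highest at P14 and P28.

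Candidate 55 had the sequence that RefSeq gives for miR-3099, which lies at chr1:76057109-76057130 on the minus strand of GRCr8, within no other listed gene. Its level was lower from P7 on than before. It had 408 TPM at E10, 174 at E13, 219 at E17, 149 and 185 in the P0 samples, 142 at P3, 56.4 at P7, 39.9 at P14 and 31.5 at P28. The runs disagreed most at E10, with 61.6 TPM in run 1 and 754 in run 2, so that E17 was highest in run 1 and E10 in run 2. In both runs P7, P14 and P28 lay below all earlier stages (18.8 to 25.2 TPM in run 1 and 39.9 to 87.5 in run 2). P0 averaged 167 ± 25.4 TPM (SD, n = 2 tissue samples). The slope was -0.40 ± 0.16 log2 units per stage step, adjusted p = 0.0581, just short of the threshold, and whether it passed depended on the setting. By DESeq2 it was -0.38 (adjusted p = 0.00612), with identical tags only -0.51 (0.00812), without TMM factors -0.49 (0.00288) and over E17 to P28 alone -0.68 (0.0027), and it also passed without E10, E13 or P3 (adjusted p = 0.0246 to 0.0492). It did not pass in run 1 alone or run 2 alone (adjusted p up to 0.217), with no filter on low counts (0.0607) or without E17, either P0 sample, P7, P14 or P28 (adjusted p = 0.0593 to 0.377), and without P28 the slope was -0.21.

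The 3' end of Candidate 55 was ragged. Of 38328 reads with the listed start, 21.6% ended at the listed base, 34.7% earlier and 43.7% later, and only 9.44% were longer by bases that the Mir3099 hairpin encodes. The form of 18 nt, the shortest that the files hold, was 0.74% at E10 and 22.4 to 48.4% later, the highest at P7. In run 1 it was 11.9% at E10 against 0.145% in run 2. The other arm of the hairpin had 28 reads.

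Among the next most abundant candidates the early stages held the highest levels. Candidate 78 had 113 TPM at E10, 39.5 at E13, 13.9 at E17, 2.34 and 1.47 in the P0 samples, 1.84 at P3, 2.99 at P7, 4.88 at P14 and 4.21 at P28. It was above 50 TPM at E10 in both runs (95.7 and 130.4 TPM), and its fall passed the threshold (-0.48 ± 0.11 log2 units per stage step, adjusted p = 0.00461). Over E17 to P28 alone its slope was -0.20, adjusted p = 0.28.

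Candidate 82 had 26.1 TPM at E10, 49.9 at E13, 37.5 at E17, 18.1 and 18.6 in the P0 samples, 16.5 at P3, 11.5 at P7, 8.67 at P14 and 12.9 at P28. It was highest at E13, with runs close together there (50.3 and 49.5 TPM), and its slope was not past the threshold (-0.20 ± 0.13 log2 units per stage step, adjusted p = 0.191), whereas without E10 it was -0.35, adjusted p = 0.0221. The slope of Candidate 82 also passed over E17 to P28 (-0.35, adjusted p = 0.0248) and without TMM factors (-0.28, adjusted p = 0.0386, edgeR). Its commonest tag was 2 nt longer at the 3' end than the listed sequence, and only 3.68% of its 4951 reads were identical to the list.

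Candidate 22 had 21.2 TPM at E10 (21.7 and 20.7 in the runs) and between 0 and 1.56 in the other tissue samples. It stood out at that stage alone, and its fall (-0.51 ± 0.16 log2 units per stage step, adjusted p = 0.0223) was lost without E10 (-0.12, adjusted p = 0.667) and without P28 (-0.40, adjusted p = 0.111). The call was also lost in run 1 alone (-0.50, adjusted p = 0.0604) and over E17 to P28 (-0.07, adjusted p = 0.834, edgeR). Candidates 5 and 26 split by run. For Candidate 5, E13 gave 66.8 TPM in the first run and 10.7 in the second, and Candidate 26 12.6 and 1.41, while at E10 run 2 was the higher for both (9.78 and 25.4 TPM for Candidate 5, 13.3 and 19.9 for Candidate 26). Neither slope passed the threshold (adjusted p = 0.129 and 0.191, edgeR).

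Along the stages more candidates fell than rose. For each sequence with at least 10 reads in at least 2 tissue samples, the linear trend of the log2 count over the stage order (1 for E10 to 8 for P28) was tested by edgeR's quasi-likelihood test, with p-values adjusted by Benjamini-Hochberg over all 564 sequences tested. All counted tags entered the test, also those seen in 1 run only, unlike in the levels. Of the 89 candidates that passed the filter, 27 fell (30.3%), 12 rose (13.5%) and 50 did not pass an adjusted p of 0.05, while over all sequences tested 25.9% fell and 17.4% rose. The median slope of the candidates was -0.18 log2 units per stage step, against -0.09 over all sequences. The shares of the candidates lay near those of all sequences, and the difference between them was not tested. Of the candidates that fell, 12 reached 10 reads only at E10, E13 or E17, and of those that rose, 2 did so only from P7 to P28. They entered the test through the stages at which they were high, so the direction of these calls is not independent of the filter, and the levels of those named below are given as a description with no p-value. Among the RefSeq miRNAs this held for 14 of 119 that fell and 2 of 86 that rose. With no filter on low counts, 31 candidates fell (30.7%) and 13 rose (12.9%), against 21.6% and 15.4% of all 721 sequences. Without the TMM scaling factors, 6 candidates rose (6.74% against 9.4% of all sequences) and 36 fell (40.4% against 38.5%), with a median slope over all sequences of -0.19. Without P28, 14 candidates fell (15.9%, against 17.0% of all sequences) and 12 rose (13.6% against 14.5%). Without E10, 25 fell (31.6% against 21.8%) and 6 rose (7.59% against 15.6%). Without P14, 20 fell (22.7% against 20.4%) and 7 rose (7.95% against 13.7%). From E17 to P28 alone, one dissection throughout, 15 fell (20.3%) and 6 rose (8.11%) of 74 tested, against 19.2% falling and 21.3% rising among all 525 sequences tested there, a difference that was not tested. Beside these calls, the oligodendrocyte markers (miR-219 and miR-338, 6 mature miRNAs) summed to 2297 TPM at E10, 731 at E13, 80.1 to 196 from E17 to P3 and 1774 to 10702 from P7 on. The muscle markers (miR-1, miR-133 and miR-206, 8 mature miRNAs, of which 2 had no reads) summed to 78.1 TPM at E10, 439.6 at E13, 13.0 to 14.9 at E17 and P0, 135 at P3 and 899 to 1679 from P7 on. The part of these cells, and of the mesenchyme and blood markers given above, in the falls and the rises was not tested.

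By stage of highest level, 38 candidates were highest at E10, 30 at E13, 7 at E17, 2 at P0, 9 at P3, 1 at P7, 6 at P14 and 8 at P28. E10 and E13 together took 67.3% of the candidates and 61.1% of the 532 RefSeq miRNAs with a level. The RefSeq miRNAs had a second group at P28 (17.1%), where 7.92% of the candidates were highest. Both runs gave the same stage for 61 of the candidates.

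**Figure D4:**
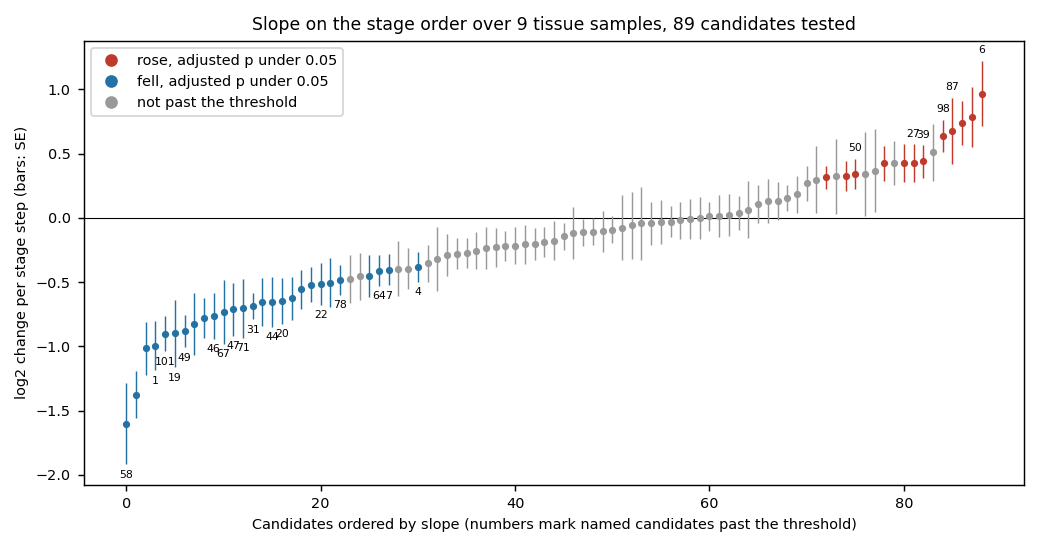
Slope on the stage order (y axis, log2 change per stage step, bars are SE) of the 89 tested candidates in order of slope (x axis), coloured by call. The 27 that fell run from -1.60 (Candidate 58) to -0.38 (Candidate 4), and the 12 that rose from 0.32 (Candidate 12) to 0.97 (Candidate 6).

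The candidates that fell most had their highest levels in the embryo and, at P14, were not seen in both runs. Candidate 58 had 2.90 and 2.25 TPM in the runs at E10, 4.34 and 1.41 at E13, 4.38 and 0.795 at E17, and 0 in every later tissue sample. Its reads numbered 211 from E10 to E17, 8 at P0 and 0 among 93166276 clean reads from P3 to P28, which allows up to 0.0322 TPM. Since Candidate 58 was picked for its fall in these data, the gap between its embryonic and later levels is a description and no separate result. The fitted slope of -1.60 ± 0.32 log2 units per stage step depends on the small count that edgeR adds to zeros, and only embryonic samples carried the candidate through the filter.

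Candidate 1 had 0.589 TPM at E10, 4.13 at E13, 0.944 at E17, 1.26 and 0.241 in the P0 samples, 0 at P3, 0.28 at P7, 0 at P14 and 0 at P28 (slope -0.99 ± 0.19 log2 units per stage step, adjusted p = 0.00133). By tags seen in both runs it was highest at E13 in each run and absent at P3, P14 and P28. With all its tags counted the ranking turned in run 1, where E10 held 272 reads and E13 46, while run 2 held 3 and 37, and in run 2 alone the slope was -0.83, adjusted p = 0.0735.

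Candidate 49 had 7.14 TPM at E10, 6.71 at E13, 1.66 at E17, 0.246 and 0.12 in the P0 samples, 0.121 at P3, 0 at P7, 0 at P14 and 0.0801 at P28, with a fitted slope of -0.88 ± 0.13 log2 units per stage step. Its levels were at or under 0.246 TPM from P0 on. Candidate 19 had 1.86 TPM at E10, 1.60 at E13, 0.167 at P3 and 0 elsewhere (-0.90 ± 0.26 log2 units per stage step). Candidates 41 and 25 had fitted slopes of -1.38 and -1.02 and are named after their values were seen. Candidate 49 reached 10 reads only at E10, E13 and E17, and Candidates 19, 41 and 25 only at E10 and E13. Candidate 41 had 2.72 and 12.8 TPM in the runs of E10 and 3 reads in all from P3 to P28.

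The candidates that rose were all scarce. Their highest levels ranged from 0.876 to 9.24 TPM, in Candidates 51 and 12. Candidate 6 rose most steeply (0.97 ± 0.25 log2 units per stage step, adjusted p = 0.00857), and its levels are given beside those of miR-344b-5p, which it resembles. Candidate 98 had 0.257 TPM at E10, 0 at E13, 0.146 at E17, 0.14 and 0.0845 in the P0 samples, 0.205 at P3, 0.654 at P7, 1.02 at P14 and 2.46 at P28 (0.64 ± 0.12 log2 units per stage step, adjusted p = 0.00133). It was at or under 0.257 TPM up to P3 and rose from P7 to P28, with 2.50 and 2.41 TPM in the runs of P28.

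Candidate 87 had 0 TPM at E10, 0 at E13, 0 at E17, 0.669 and 0.504 in the P0 samples, 1.69 at P3, 2.28 at P7, 3.12 at P14 and 0.641 at P28. It was absent by tags seen in both runs before birth. Its mean was highest at P14, which was the highest stage in run 1 (4.29 TPM), while P3 was highest in run 2 (2.21 TPM). Its slope was 0.68 ± 0.26 log2 units per stage step, adjusted p = 0.0479 and its quadratic term -0.28 ± 0.06, adjusted p = 0.0274, the slope being lost, with adjusted p up to 0.176, when E10, E13, E17, either P0 sample, P7 or P14 was left out, and the quadratic term without E10, P3 or P28 (adjusted p up to 0.153). The slope was also lost in run 1 alone (adjusted p = 0.0547), run 2 alone (0.0732) and E17 to P28 (0.366, edgeR). The quadratic term was also lost in run 1 alone (adjusted p = 0.312), without TMM factors (0.103) and over E17 to P28 (0.352, edgeR). Candidate 39 had 0.668 TPM at E10, 0.163 at E17, 2.40 at P14 and 2.35 at P28 (0.44 ± 0.13 log2 units per stage step, adjusted p = 0.0147, but 0.35, adjusted p = 0.062 without E10). Its slope was also short of the threshold over E17 to P28 (0.42, adjusted p = 0.0547, edgeR). Candidate 27 had 0.5 TPM at E10 and 4.65 at P3 (0.43 ± 0.15 log2 units per stage step, adjusted p = 0.0312), and this call was lost without E10 (0.30, adjusted p = 0.152), E17, P7 or P14. The call was also lost in run 1 alone (0.26, adjusted p = 0.326), without TMM factors (0.29, 0.0724) and over E17 to P28 (0.32, 0.181, edgeR). In Candidate 27 the runs of P7 differed, with 0.986 TPM in run 1 and 6.50 in run 2.

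A curved course passed the threshold in 6 of the 89 candidates (6.74%), against 3.72% of all sequences tested. They were Candidates 11, 54, 58, 87 and 94, higher at the middle stages or, for Candidate 58, with a drop after E17, and Candidate 46, which was lowest there. Without E10 the count was 0 (with 21 at an unadjusted p under 0.05, edgeR), and it was 3 without P3 and 3 without P28. Candidate 94 had 0.121 TPM at E10, 0.187 at E13, 1.76 at E17, 1.61 and 3.03 in the P0 samples, 4.66 at P3, 1.05 at P7, 1.43 at P14 and 0.891 at P28 (-0.34 ± 0.06, adjusted p = 0.00805). Like Candidate 11 it was highest at P3 in both runs (4.44 and 4.87 TPM), and without E10 the term was -0.30, adjusted p = 0.063.

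Candidate 46 had 5.52 and 17.4 TPM in the runs of E10, 0.98 and 1.96 at E13, 0.0801 at P28 and 0 between them (quadratic term 0.32 ± 0.06, slope -0.76 ± 0.18 log2 units per stage step). It reached 10 reads at E10 and E13 alone, so these fitted values are a description. Candidate 54 reached 0.827 TPM at P3, its highest mean, and was at 0 at E10 and E13, with E17 highest in run 1 (0.986 TPM) and P3 in run 2 (0.838 TPM). Its quadratic term passed the threshold (-0.34 ± 0.08, adjusted p = 0.0294), a call lost without E10, P0 sample 2, P3, P14 or P28 (adjusted p up to 0.111). The call was also lost without TMM factors (-0.25, adjusted p = 0.0516) and over E17 to P28 (-0.24, adjusted p = 0.451, edgeR). For Candidate 58, which had only embryonic samples with 10 reads, the term was -0.66 ± 0.14.

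Candidates 4 and 45 came from the strand opposite to miR-219, a miRNA family of oligodendrocytes. Candidate 4 lay at chr20:4831643-4831660 on the minus strand of GRCr8, opposite the 3' arm of Mir219a1, within no other listed gene. Candidate 45 had its sequence at chr20:4831599-4831620, the other arm of the same opposite-strand hairpin, and also at chr3:33516561-33516582 on the plus strand, within Mir2964 and the gene Cercam and opposite to Mir219-2, so that its reads cannot be told apart between the sites. The table of genes used here does not say whether these places are exons or introns.

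Candidate 4 had 9.44 TPM at E10, 13.7 at E13, 3.92 at E17, 1.68 and 2.93 in the P0 samples, 1.55 at P3, 1.59 at P7, 1.26 at P14 and 1.31 at P28. It was highest at E10 in run 1 (16.4 TPM, with 2.50 in run 2) and at E13 in run 2 (16.4), and it fell (-0.38 ± 0.11 log2 units per stage step, adjusted p = 0.0158), a call lost without E13 (-0.28, adjusted p = 0.0606), without P14 (-0.36, adjusted p = 0.0594) and without P28 (-0.35, adjusted p = 0.0806). The call of Candidate 4 was also lost in run 2 alone (-0.34, adjusted p = 0.0966, edgeR). The list gives 18 nt for it, but its commonest tag was the 22-nt form below, whose last 4 bases, in capitals, put it past the window of 3 nt.
Candidate 4 commonest tag: ggacgtccagacgcaactCTCG
That form had 1948 reads, more than the 901 reads in the window. With every 3' end in the listed precursor counted, the level was 61.4 TPM at E10, 20.1 at E13, 5.78 at E17, 2.67 and 4.96 in the P0 samples, 2.66 at P3, 1.96 at P7, 1.93 at P14 and 2.01 at P28, so that E10 came first. Of the 1971 reads in tags past the window, run 1 held 156 and run 2 1815, so the long form rests mainly on run 2. Candidate 45 had 4.39 TPM at E10, 3.28 at E13, 1.84 at E17, 1.01 and 1.40 in the P0 samples, 1.40 at P3, 0.872 at P7, 0.615 at P14 and 0.841 at P28, also lower after birth than at E10, with a slope of -0.28 ± 0.11 log2 units per stage step, adjusted p = 0.0655 that passed without E10 (-0.38, adjusted p = 0.0212). Whether this slope passed depended on the setting. By DESeq2 it was -0.26 (adjusted p = 0.0477), and by edgeR -0.38 without TMM factors (0.00748) and -0.37 over E17 to P28 (0.0399).

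At Mir219a1 the products of both strands were highest at E10 or E13, and at Mir219-2 the sense products differed from each other. miR-219a-1-3p, the sense partner at Mir219a1, had 1141 TPM at E10, 359 at E13, 115 at E17, 22.2 and 35.3 in the P0 samples, 23.7 at P3, 3.36 at P7, 5.38 at P14 and 4.76 at P28 (slope -1.0 ± 0.11, adjusted p = 2.24e-05, edgeR). It was highest at E10, as the long form of Candidate 4 was. miR-219a-2-3p, the sense product of Mir219-2, had 58.8 TPM at E10, 281 at E13, 33.6 at E17, 76.2 and 5.88 in the P0 samples, 62.3 at P3, 1687 at P7, 3528 at P14 and 10431 at P28 and rose (1.06 ± 0.19, adjusted p = 9.62e-04, edgeR). Its runs differed widely, with 2971 TPM in run 1 and 403 in run 2 at P7 and 17547 and 3314 at P28, the highest stage in both. miR-219a-5p, which has the same sequence at both sites, had 1067 TPM at E10 and 126 at P28 with no call (-0.27 ± 0.13, adjusted p = 0.109, edgeR). Opposite Mir219-2, miR-219b, the 5' arm of Mir2964, had 5.72 TPM at E10 and 0.731 at P28 (-0.29 ± 0.11, adjusted p = 0.0446, edgeR). Differences in slope between the strands were not tested. Over all libraries the strand of Mir219a1 had 43532 reads on its 3' arm and the opposite strand 2872 on the arm of Candidate 4.

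**Figure D5:**
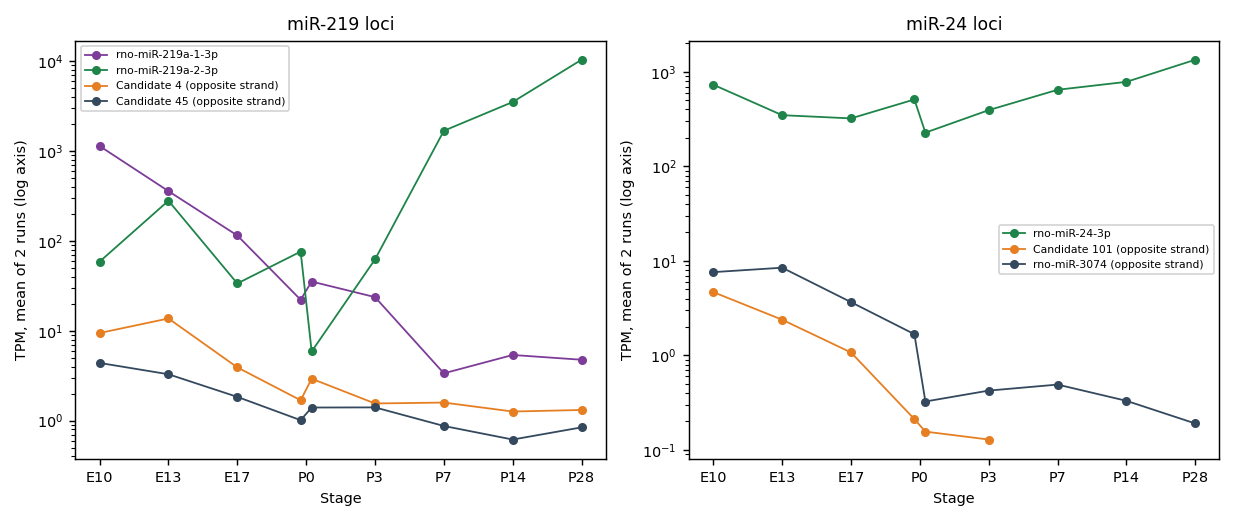
TPM (log axis, mean of 2 runs, values of 0 not drawn) of candidates and their opposite-strand partners by stage, with both P0 samples drawn side by side, for the miR-219 sites (left) and the miR-24 sites (right). miR-219a-2-3p climbs to 10431 TPM and miR-24-3p to 1345 at P28, while Candidates 4 and 45 and Candidate0101 are lower at P28 than at E10.

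Candidate0101 lay opposite to miR-24, at chr17:1818674-1818695 on the plus strand of GRCr8, in the 5' arm of Mir3074 and within the gene Aopep, and its sequence also lay opposite to Mir24-2 at chr19:40859483-40859504. It had 4.67 TPM at E10, 2.39 at E13, 1.07 at E17, 0.212 and 0.156 in the P0 samples, 0.129 at P3, 0 at P7, 0 at P14 and 0 at P28 and fell (-0.90 ± 0.14 log2 units per stage step, adjusted p = 2.90e-04), with 3.98 and 5.36 TPM in the runs of E10. It was at or under 0.212 TPM from P0 on. The other arm of Mir3074, miR-3074, fell as well, from 7.61 TPM at E10 and 8.47 at E13 to 0.19 at P28 (-0.67 ± 0.12, adjusted p = 7.53e-04, edgeR). On the opposite strand miR-24-3p had 731 TPM at E10, 348 at E13, 322 at E17, 510.5 and 228 in the P0 samples, 394 at P3, 647 at P7, 784 at P14 and 1345 at P28 and rose (0.31 ± 0.08, adjusted p = 0.0104, edgeR). Both arms of the Mir3074 hairpin had similar reads, 332 on the 5' arm and 474 on the 3' arm, and starts were uneven on both (49.7 and 58.6% at the commonest start).

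Candidate 50 was listed with 2 unlike sequences. The one in the full list was counted throughout, with 132 reads and 0.258 TPM at E10, 1.08 at P14 and 0.571 at P28 (0.34 ± 0.12 log2 units per stage step, adjusted p = 0.0339), and this rise was lost without E10 (0.28, adjusted p = 0.0913), E17, P7 or P14, in run 1 or run 2 alone (adjusted p = 0.0891 and 0.0523) and without TMM factors (0.115). Over E17 to P28 the rise was lost too (0.29, adjusted p = 0.129, edgeR). The second sequence was that of miR-3074 without its last base and had 591 reads, with 9.25 TPM at E10 and 0.34 at P28. No slope was fitted for the second sequence. Both are shown with the seed in capitals.
Candidate 50: tCTGAGTGaagacctgctgg
Candidate 50 second sequence: gATATCAGctcagtaggcacc

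Candidate 6 differed from miR-344b-5p by 1 base, G10A, counted from 1 at the 5' end with the base of miR-344b-5p first. The sequences are repeated with this base in capitals.
Candidate 6, mismatch in capitals: agtcaggctActggttatatt
rno-miR-344b-5p, mismatch in capitals: agtcaggctGctggttatattc
Candidate 6 had 0 TPM at E10, 0 at E13, 0.437 at E17, 1.87 and 0.605 in the P0 samples, 1.61 at P3, 2.90 at P7, 3.29 at P14 and 6.38 at P28, and in both runs it was highest at P28 (7.40 and 5.36 TPM). miR-344b-5p had 2.47 TPM at E10, 6.73 at E13, 10.0 at E17, 56.0 and 31.8 in the P0 samples, 71.01 at P3, 51.9 at P7, 103 at P14 and 249 at P28 and rose too (0.93 ± 0.18, adjusted p = 0.00143, edgeR). Candidate 6 was at 1.90 to 5.59% of the level of miR-344b-5p from E17 to P28, with 178 and 7301 reads at P28. The study lists a precursor for Candidate 6, from which 453 reads came, all of them on the arm of the candidate. 

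Candidate 86 lay on the 3' arm of another member of that family, Mir344g, at chr1:124754944-124754964 on the minus strand of GRCr8. It had 3.96 TPM at E10, 6.81 at E13 and 1.39 at P28, a range without a call (-0.11 ± 0.16 log2 units per stage step, adjusted p = 0.605). The hairpin had 377 reads on that arm and 67 on the 5' arm, where RefSeq places miR-344g. The candidate itself counted 1091 reads, since bases outside the listed ends were not checked. Its level therefore also holds reads that this hairpin does not encode in full.

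Candidate 31 was the RefSeq miRNA miR-3075 (24 nt, at chr16:1107909-1107932 on the plus strand of GRCr8, within Zmiz1). It had 12.9 TPM at E10, 5.65 at E13, 2.81 at E17, 0.953 and 0.781 in the P0 samples, 0.395 at P3, 0.105 at P7, 0 at P14 and 0.351 at P28 and fell (-0.69 ± 0.10 log2 units per stage step, adjusted p = 2.90e-04). Its level went down at each stage from E10 to P14, and the slope was alike in run 1 (-0.73) and run 2 (-0.69). The other arm of its hairpin had 1 read.

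Candidate 71 overlapped miR-1949 at chr18:27429750-27429769 on the plus strand of GRCr8, within Matr3, a gene of a nuclear RNA-binding protein. At E13 run 1 gave 104 TPM and run 2 28.8, with 0 to 3.33 TPM in all other libraries. E13 thus stood alone, and the negative slope (-0.70 ± 0.23 log2 units per stage step, adjusted p = 0.0244) turned to 0.05, adjusted p = 0.778 without it. Leaving out P7, P14 or P28 also ended the call (adjusted p = 0.052 to 0.0673). So did run 1 alone (-0.62, adjusted p = 0.0725) and E17 to P28 alone (-0.13, adjusted p = 0.450, edgeR). The RefSeq miRNA that begins where most of these reads began, miR-1949, had 71.3 TPM at E13.

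Candidate 94 shared 20 bases with miR-3573-5p, from which its start lay 2 nt downstream, at chrX:68299282-68299303 on the plus strand of GRCr8, within Efnb1, the gene of a guidance ligand of the ephrin family. Of its reads 96.2% had the start of the candidate and not that of RefSeq. The 3' arm had 2 reads against 436 on the 5' arm.

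Candidate 93 lay on the 5' arm of Mir2985 at chr2:168254560-168254580 on the minus strand of GRCr8, within Gria2, the gene of an AMPA glutamate receptor subunit. It had 1.40 to 3.53 TPM in all 9 tissue samples, a narrow range without a slope past the threshold (0.11 ± 0.15 log2 units per stage step, adjusted p = 0.561). The 5' arm held 547 reads and the 3' arm, where RefSeq places miR-2985, 18. Candidate 48 lay opposite to miR-141, a miRNA of epithelial cells, at chr4:159209584-159209603 on the plus strand of GRCr8. It had 2.65 TPM at E10, 10.7 at E13, 8.14 at E17, 6.87 and 1.96 in the P0 samples, 2.07 at P3, 3.85 at P7, 2.87 at P14 and 0.94 at P28. The opposite strand had 834 reads on the arm of the candidate, while the strand of miR-141 had 9 and 19 on its arms. Its slope was -0.26 ± 0.14 log2 units per stage step, adjusted p = 0.152 and passed the threshold without E10 (-0.42, adjusted p = 0.0158). That slope also passed over E17 to P28 (-0.45, adjusted p = 0.0194) and without TMM factors (-0.34, adjusted p = 0.0427, edgeR). Candidate 5 differed from miR-466c-5p by C18U, within the shared bases, and had 2572 reads against 622.

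Several candidates counted the same reads. Candidates 2 and 3 overlapped by 17 bases and shared 97.6% of the reads of Candidate 2 and 97.3% of those of Candidate 3. Candidates 7 and 64 shared 98.7 and 99.8%, Candidates 17 and 90 97.6 and 98.8%, Candidates 20 and 44 78.5 and 96.7%, and Candidates 47 and 67 70.9 and 86.6%. The 4 last pairs began at the same base and differed at the 3' end, so each pair stands for 1 set of reads under 2 numbers in the counts above. Candidates 7 and 64 fell (-0.40 ± 0.12 log2 units per stage step, adjusted p = 0.0158 for Candidate 7), from 5.93 TPM at E13 to 0.621 at P28. Both calls were lost in run 1 alone (adjusted p = 0.117 and 0.103) and over E17 to P28 (0.120 and 0.112, edgeR). Candidate 20 had 1.91 TPM at E10, 0 at E13 and at most 0.28 later. Candidates 20 and 44 reached 10 reads only at E10 and E17, so without E10 neither could be tested, and their fitted slopes (-0.65 ± 0.18 log2 units per stage step for Candidate 20) describe a level at E10 above the rest. Candidates 47 and 67 fell as well, from 2.27 TPM of Candidate 47 at E17 to 0 from P7 on (-0.71 ± 0.20 log2 units per stage step, adjusted p = 0.0134), a call lost without P14 (-0.65, adjusted p = 0.0576) and without P28 (-0.50, adjusted p = 0.103), and that of Candidate 67 (-0.73 ± 0.25 log2 units per stage step, adjusted p = 0.0306) also without E17 (-0.52, adjusted p = 0.0735) or P7 (-0.74, adjusted p = 0.0613). Neither run alone kept the call of Candidate 67 (-0.87, adjusted p = 0.0514 in run 1 and -0.58, adjusted p = 0.0981 in run 2, edgeR). Candidates 17 and 90 stayed at or under 0.565 TPM and had no call. Candidates 2 and 3 had none either, with 9.38 TPM at E10, 8.89 at E13, 4.83 at E17, 7.16 and 0.618 in the P0 samples, 1.90 at P3, 3.19 at P7, 3.32 at P14 and 4.60 at P28 for Candidate 3 and the higher value in run 1 in every tissue sample but E10.

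Candidates 8, 9 and 10 came early in the list and had listed precursors. Candidate 8 had 0.85 TPM at E10, 2.98 at E13, 2.46 at E17, 3.05 and 0.81 in the P0 samples, 0.0834 at P3, 0.843 at P7, 1.19 at P14 and 0 at P28 without a call (-0.24 ± 0.16 log2 units per stage step, adjusted p = 0.239), and without E10 its slope was -0.39, adjusted p = 0.0448. Over E17 to P28 that slope was -0.44 (adjusted p = 0.0475, edgeR). For Candidate 9, E13 gave 12.6 TPM in the first run and 0.235 in the second. At E13, E17, P7, P14 and in P0 sample 1 the first run gave 2.45 to 12.6 TPM, while no library of the second exceeded 0.795 TPM. The runs therefore disagreed on it in most tissue samples, and its slope was not past the threshold (-0.32 ± 0.25 log2 units per stage step, adjusted p = 0.293). Its sequence differed from its listed precursor by C11G, the precursor's base first, and that precursor gave 77 reads, all from the other arm, while the sequence listed as Candidate 1 was not found in the precursor listed for it. Candidate 10 had 1.85 TPM at E10, 0.375 at E13, 0.509 at E17, 0.659 and 6.02 in the P0 samples, 8.50 at P3, 3.06 at P7, 0.197 at P14 and 0.853 at P28, the highest at P3 in both runs (9.61 and 7.39 TPM), with no call for the slope (adjusted p = 0.372, edgeR) or the quadratic term (-0.21 ± 0.06, adjusted p = 0.0957).

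The other 60 candidates were mostly scarce. Their highest levels ranged from 0.229 to 12.5 TPM with a median of 1.64, they had 21 to 1858 reads, and 42 of the 60 were highest at E10 or E13 (70.0%, against 61.1% of the RefSeq miRNAs). Of the 48 that could be tested 10 fell (20.8%) and 6 rose (12.5%), against 25.9% and 17.4% of all sequences tested, and the 12 that could not had 21 to 105 reads in all. The median share of reads at the listed start was 91.3%.

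The spread between runs and between the P0 samples bounds what these levels can show. Among candidates with at least 10 reads in both runs, the median absolute log2 difference between the runs was 0.449 (P3) to 1.33 (P0 sample 1), and 17.6 to 66.7% of them differed by more than 1 log2 unit, that is more than 2-fold. Candidates poor in GC tended to be higher in run 1, with Spearman's rho between GC content and the run difference of -0.58 to 0.07 over 22 to 61 candidates that share their libraries, a description across sequences. Between the P0 tissue samples the median absolute difference was 0.543 log2 units over 49 candidates, and 16 of them differed by more than 1. For the 389 RefSeq miRNAs that passed the same minimum the P0 median was 1.03.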

How the data were processed

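Small RNA of Sprague Dawley rat forebrain or cortex was size-selected, ligated to adapters and sequenced on an Illumina (Solexa) platform, and the authors removed low-quality reads, adapters and contaminants. The deposited files hold counts, the number of clean reads of each distinct tag with its length, 1 file for each library, with tags of 18 to 30 nt in run 1 and up to 39 nt in run 2. No column was left unmapped. The 101 candidate sequences came from the study's list, which it made from unannotated tags of these libraries with Mireap, and only sequences were taken from it. RefSeq mature miRNAs and hairpins (GRCr8) were matched by sequence, and miR-3075 and miR-3099, identical to Candidates 31 and 55, were left out of the RefSeq set. No rat genome was used, so that only candidates within RefSeq hairpins have coordinates. A marker whose miRNA is not in that table was not analysed here.

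Tags were matched as described in the report (5' end within 3 nt, at most 3 nt past the 3' end), and a tag that fits several sequences counted for each (102 of 2207 candidate tags). TPM was reads divided by all clean reads of the library. Candidate levels kept only tags seen in both runs, while the tests used all counted tags, also those with reads in 1 run. A stage at 0 TPM can therefore hold reads in a test, as for Candidate 8, which had at least 10 reads at P28. For the tests both runs of a tissue sample were summed, since they are technical replicates. The p-values then rest on the scatter of 9 tissue samples around the fitted line or curve. Since only the P0 pair is replicated, that scatter mixes stage changes off the fit with the spread between tissue samples. The slope and the quadratic term on the stage order (centred) were fitted with edgeR 4.0.16 (glmQLFit, glmQLFTest, TMM, at least 10 reads in at least 2 tissue samples) in R 4.3.3, with adjustment over all sequences tested. The fit was tested on simulated counts before use. Alternatives were other scaling (DESeq2 1.42.0, no TMM), filters, tags, single runs, runs as a replicate block and leaving out each tissue sample. Tables were made with Python 3.11.15.

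Singly named are Candidates 1 to 11 and 55, the 10 with the highest level, the 5 largest rises and falls that kept their direction in both runs, those past the threshold for curvature, those that overlap another candidate by at least 16 bases or share its precursor, those that match a RefSeq miRNA or hairpin with at most 1 mismatch, and those listed with 2 sequences. The candidates, lists and tests were chosen with earlier results of these data known. The ligation of adapters and the PCR favour some sequences, so a ratio between the levels of unlike sequences holds for these libraries and not for the tissue, and reads are not independent molecules.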

Additional observations from a re-analysis of the deposited data

Results flagged for a closer look

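Some tags lay outside the counted windows but belonged to the listed sequences or precursors, and their reads were above the 3 that a count of 0 allows. Candidate 4 had 1971 reads in tags that ran past the window, 1948 of them in the 22-nt form, with 1638 at E10 and 1815 in run 2. The second sequence listed for Candidate 50 had 591 reads, 344 in run 1 and 247 in run 2. Candidate 55 had 4408 reads in tags more than 3 nt longer than listed. The unlisted arms of the precursors gave 77 reads for Candidate 9, 96 for Candidate 11 and 14 for Candidate 8. Groups of 4 or more tissue samples, which a check for single outlying samples needs, did not occur.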

How the results depend on the processing

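Few reads limit most candidates, since 22 of the candidates had under 100 reads in all libraries together. Beside each count of candidates stands its share of those tested, against the share over all sequences tested in that setting. Tested candidates numbered 89 as reported and without TMM factors, 65 with identical tags only, 69 in run 1 alone and 74 from E17 to P28, the last chosen after seeing the data. The rising count was 12 as reported (13.5% against 17.4%), 6 without TMM factors (6.74% against 9.40%), 7 with identical tags (10.8% against 14.9%), 4 in run 1 (5.80% against 9.88%) and 6 from E17 to P28 (8.11% against 21.3%), and 6 to 13 when 1 tissue sample was left out. The falling count was 27 as reported (30.3% against 25.9%), 14 with identical tags (21.5% against 27.1%), 14 in run 1 (20.3% against 15.4%) and 15 from E17 to P28 (20.3% against 19.2%), and 14 to 27 on leaving out 1 tissue sample. Without TMM factors, rising calls over all sequences went from 98 to 53 and falling ones from 146 to 217. With the runs as a replicate block, 11 rose, 36 fell and 16 were curved, a fit that treats technical runs as replicates and so understates the spread. Curved candidates numbered 6 as reported, 0 in run 1 alone and 0 from E17 to P28 (edgeR, with 10 and 16 at an unadjusted p under 0.05), and 0 to 6 on leaving out 1 tissue sample. The median share of reads at the listed 5' end was 92.3% in run 1 alone and 98.9% over tags seen in both runs, against 89.1%. Of the named slopes past the threshold, those of candidates that only embryonic samples carried through the filter left out, 17 in number, 4 stayed past it under all alternatives tried that gave them a value, and the slope of Candidate 71 alone changed sign, its range on leaving out 1 tissue sample being -0.85 (without E10) to 0.055 (without E13). With identical tags only, the falls of Candidates 4, 7, 47, 64, 67 and 78 were no longer past the threshold (adjusted p = 0.0607 to 0.136, edgeR). The cause of these changes was not tested beyond the fewer samples, tags or reads that an alternative leaves. The number highest at E10 or E13 stayed within 1.5 times the reported value under the alternatives tried. The median number detected per tissue sample, 85, was 64 by identical tags and 62 with at least 3 reads in each run, and single tissue samples moved more, by identical tags from 75 to 47 at P7, 74 to 48 in P0 sample 1 and 74 to 49 at P28, and with at least 3 reads from 75 to 50 at P7 and 68 to 45 at P14.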
